A study of Mus musculus with 6 samples.

Results

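Splicing regulators are RNA-binding proteins that decide which exons of a pre-mRNA are joined. In striated muscle they set the isoforms of sarcomere proteins, and RBM20, which represses exons of titin and of other long sarcomere transcripts, is the best known of them. RBFOX, MBNL and CELF proteins switch exons during muscle maturation, PTBP proteins repress muscle exons in other cells, and the SRSF and HNRNP families act in most tissues as activators and repressors. The 41 genes described here were taken by symbol from these families, out of 52636 genes in the deposited tables. They are 7 RBM genes, 2 RBFOX, 3 MBNL, 2 CELF, 3 PTBP, 9 SRSF, 8 HNRNP, 2 STAR (*Qk* and *Khdrbs1*), 2 TRA2 genes and *Tardbp*, together with *Gm16298* and *Gm16299*, which lie in introns of *Rbm20* on the opposite strand. The rule states symbols and, for these last genes, a position, which it applied at *Rbm20* alone. Other genes placed in this way are described separately.

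RNA-seq was performed on tibialis anterior (TA) muscle of 3 iMS*Bmal1*+/+ (control) and 3 iMS*Bmal1*-/- (knockout) male mice of the strain C57BL/6, to ask how loss of the clock factor BMAL1 in adult skeletal muscle changes its transcripts. Both groups carry floxed *Bmal1* and HSA-MCM, a Cre recombinase driven by the human skeletal actin promoter, which acts in muscle fibers after tamoxifen. At 12 to 16 weeks of age, iMS*Bmal1*-/- mice received tamoxifen, 2 mg daily over 5 days, and iMS*Bmal1*+/+ mice were given vehicle. The TA was collected 5 weeks after treatment. The effects of genotype and of tamoxifen itself cannot be told apart. The iMS*Bmal1*+/+ libraries held 2091912, 1997203 and 2716079 counts, and the iMS*Bmal1*-/- libraries held 2403438, 1616290 and 2068657. At these totals, 0 counts allow up to 3, or 1.10 to 1.86 CPM (counts scaled by the library total), and this floor, like the intervals on shares, covers counting error only. Libraries were made with a stranded kit, but the strand setting of the counting is not given in the sources used here. With such a kit, counting under the opposite setting would give each gene the reads of the other strand. The reads were not analysed here, so the setting was not tested. The counts of every gene below, not only of genes that face each other, are therefore given as counted under its name, and the strand of their reads is uncertain.

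*Bmal1* (*Arntl*), the targeted gene, had 5, 4 and 11 counts in the control libraries and 13, 5 and 5 in the knockout libraries. These counts are too low to check the genotypes, and the gene was not tested. Its partner *Clock* had a change of -0.08 on the log2 scale (standard error 0.23, adjusted p = 0.942 by the quasi-likelihood test of edgeR with Benjamini-Hochberg adjustment).

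The tissue label was checked against 10 genes of fast skeletal muscle fibers, and all 10 were detected and tested. Their summed level was 8334, 10780 and 9595 CPM (TMM-normalized, as are all CPM below) in control and 11386, 11726 and 13549 CPM in knockout muscle, with *Myh4*, the fast myosin IIb, holding 39.4% of these counts. Each knockout library was above each control library. In these bulk samples, a change in the number of cells of a type and a change in RNA per cell cannot be told apart. Of the 10 genes, 9 had an unadjusted p under 0.05 in edgeR, beside 11.9% of the tested genes, and 8 were higher without overlap between the groups, beside 8.84%. The threshold of an adjusted p under 0.05 was passed by 1 gene in edgeR, beside 1.83% of the tested genes, by 2 in DESeq2 and by 1 in limma. The gene in edgeR was *Pvalb*, which encodes the calcium buffer parvalbumin. It had 28.3, 42.3 and 34.9 CPM in control and 62.2, 67.7 and 67.2 CPM in knockout muscle. Its groups did not overlap, and its log2 fold change was 0.90 (standard error 0.17, edgeR quasi-likelihood adjusted p = 0.00700). The median log2 fold change of the 10 genes was 0.44, beside 0.00 over the 6831 tested genes. The part of this difference in the values of the splicing regulators was not tested.

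Among 5 cardiac markers, *Tnni3* and *Myl7* had 0 counts in every library, and *Nppa*, the most counted, held 76.2% of a sum between 4.65 and 9.58 CPM, which overlapped between the groups. Among 6 macrophage markers, *Adgre1* had 0 counts, *Lyz2* and *C1qa* had at most 1 count per library, and *Cd163*, a scavenger receptor, was the most counted. The macrophage markers summed to 196, 200 and 160 CPM in control and 114, 113 and 116 CPM in knockout muscle, without overlap. *Cd163* had 115, 116 and 105 CPM in the control and 54.4, 63.5 and 52.9 CPM in the knockout libraries. It was lower in each knockout library, with a change of -0.98 on the log2 scale (standard error 0.14, edgeR quasi-likelihood adjusted p = 0.000324). *Csf1r*, the other tested macrophage gene, had a log2 fold change of -0.41 (edgeR adjusted p = 0.333), so that both tested genes of the list had an unadjusted p under 0.05, beside 11.9% of the tested genes, and 1 passed the threshold, beside 1.83%. *Cd68* had 6, 4 and 3 counts in control and 7, 6 and 10 in knockout muscle, higher in CPM without overlap, and was not tested. The part of the macrophage markers in the results on splicing regulators was not tested.

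Markers of 6 further cell types were looked at in the same way. The 5 blood markers summed to between 152 and 213 CPM, of which *Alas2*, an enzyme of heme synthesis, held 98.9%, while the 4 globin genes had at most 3 counts per library. Adipocyte markers summed to at most 12.6 CPM with *Lep* at 0 and *Fabp4* the most counted, and satellite cell markers to at most 3.59 CPM with *Cdh15* the most counted. The 6 fibroblast markers, led by *Col3a1*, lay between 19 and 49.1 CPM. Endothelial markers reached 38.6 to 70.7 CPM, mostly on *Tek*, and nerve and Schwann cell markers 5.68 to 12.2 CPM, mostly on *S100b*. The sums of these 6 lists overlapped between the genotypes. Tested were 1 blood, 1 adipocyte, 3 fibroblast and 2 endothelial genes, and 0 genes of the nerve and satellite cell lists. Of these tested genes, 0 passed the threshold in edgeR, DESeq2 or limma or had an unadjusted p under 0.05 in edgeR. Over all tested genes, the shares in edgeR were 1.83% and 11.9%.

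Of the 41 splicing regulators, 18 passed edgeR's filter on low counts, and 0 of these 18 had an adjusted p under 0.05 in edgeR's quasi-likelihood test. Over the 6831 tested genes the share was 1.83% (125 genes; 0.761% higher and 1.07% lower in knockout muscle). At an unadjusted p under 0.05 there were 2 members, *Gm16298* and *Gm16299*, beside 11.9% of the tested genes. DESeq2 and limma also gave 0 members. The median log2 fold change was 0.07 over the 18 members, with 10 above and 8 below 0, and 0.00 over the tested genes. Without knockout replicate 3 the members' median was -0.04, with 9 above and 10 below 0, and it was 0.03 without control replicate 1 and without knockout replicate 2. The 41 genes together held 0.0620% of the counts. They summed to 648, 674 and 651 CPM in control and 578, 594 and 643 CPM in knockout muscle, lower without overlap, with *Gm16299* holding 29.7% of the sum of counts. Without *Gm16298* and *Gm16299*, the sums were 362, 447 and 381 CPM against 421, 431 and 409 CPM and overlapped, and 0 of the 16 tested members had an unadjusted p under 0.05. Of the 23 members below the filter, 11 had at most 3 counts in every library, among them *Mbnl3* and *Celf1* with 0, and the other 12 reached at most 19. These 23 genes had counts too low to test.

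**Figure D1:**
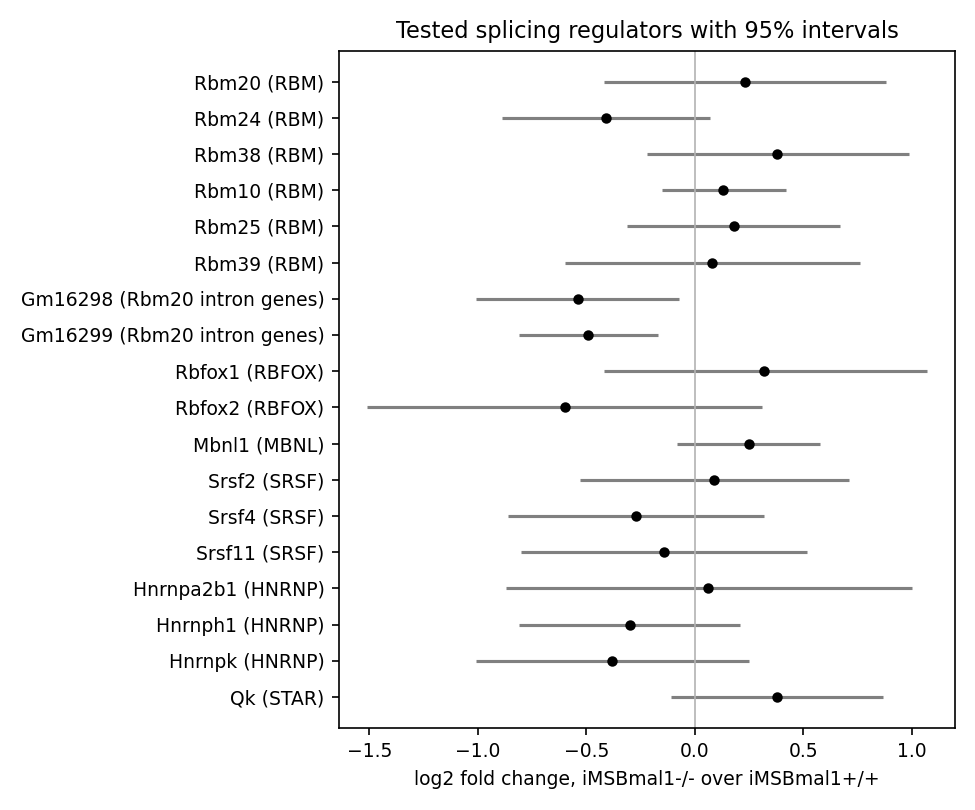
Log2 fold change (iMS*Bmal1*-/- over iMS*Bmal1*+/+, x axis) of the 18 tested splicing regulators, with their family in parentheses; points are edgeR estimates and lines are 95% intervals from 3 libraries per group. The intervals of *Gm16298* (-1.01 to -0.07) and *Gm16299* (-0.81 to -0.17), which are not adjusted for the number of genes, lie below 0, and those of the other 16 include 0.

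*Rbm20* (ENSMUSG00000043639) lies on the plus strand of chromosome 19 from 53677306 to 53867080 on GRCm38, which is the same build as mm10. Its annotated transcript with the most exons, Rbm20-203, has 14. Intron 1 of this transcript is 135655 bp long and contains *Gm16298*, a processed pseudogene with 1 exon on the minus strand from 53767891 to 53768310, which is 44937 bp before exon 2. *Gm16299*, an antisense gene with 2 exons and 2766 bp of exonic sequence, lies in intron 5 from 53819354 to 53825128, also on the minus strand, and ends 1333 bp from exon 5. Neither gene overlaps an exon of *Rbm20*, and no other annotated gene faces its exons.

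**Figure D2:**
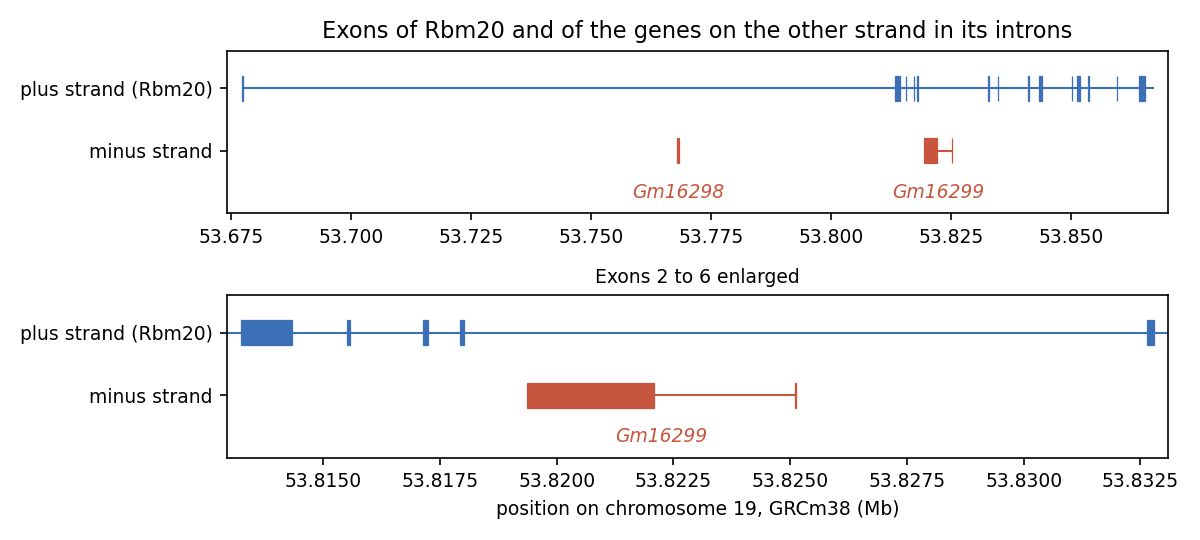
Map of *Rbm20* on chromosome 19 of GRCm38 (x axis, position in Mb), to scale; boxes are exons of Rbm20-203 on the plus strand (upper row of each panel) and of *Gm16298* and *Gm16299* on the minus strand (lower row), and the lower panel enlarges exons 2 to 6. *Gm16298* lies in intron 1 and *Gm16299* in intron 5.

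*Rbm20* had 14, 33 and 48 counts in the control libraries and 33, 30 and 38 in the knockout libraries, or 6.96, 17 and 18.2 CPM against 14.4, 18 and 18.1 CPM. The low value was that of control replicate 1, and the other 5 libraries lay between 14.4 and 18.2 CPM, so that the groups overlapped. Its log2 fold change was 0.23 (standard error 0.31, 95% interval -0.42 to 0.88, edgeR quasi-likelihood adjusted p = 0.848), and it was -0.09 without control replicate 1. The lower bound of the interval over 3 libraries per group corresponds to 74.9% of the level counted under its name in control muscle. That bound includes control replicate 1. Without this library the standard error was 0.27 around -0.09, and no interval was computed.

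The opposite-strand gene *Gm16299* (ENSMUSG00000089679) held more counts than *Rbm20* in each library, with 450, 381 and 603 in control and 295, 215 and 430 in knockout muscle. Scaled to CPM, these were 224, 197 and 229 against 128, 129 and 205. Replicates 1 and 2 of knockout lay below each control library, while replicate 3 lay above control replicate 2, so that the groups overlapped. The mean was 216 ± 17.3 CPM (SD, n = 3) in control and 154 ± 44.1 CPM (SD, n = 3) in knockout muscle, with a change of -0.49 on the log2 scale (standard error 0.15, edgeR quasi-likelihood adjusted p = 0.131). This did not pass the threshold. The edgeR adjusted p was 0.00440 without knockout replicate 3 (log2 fold change -0.75) and 0.0140 without the filter on low counts, and over 12 alternatives, DESeq2 and limma among them, the adjusted p ranged from 0.00440 to 0.492.

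*Gm16298* (ENSMUSG00000089807) had 125, 59 and 108 counts in control and 66, 57 and 61 in knockout muscle, or 62.2, 30.5 and 41 CPM against 28.7, 34.1 and 29.1 CPM. Its highest value was in control replicate 1, the library with the lowest value of *Rbm20*, and the groups overlapped. The log2 fold change was -0.54 (standard error 0.22, edgeR quasi-likelihood adjusted p = 0.321) and moved to -0.25 without that library. The 420 bp of *Gm16298* align at 94.3% identity with the transcript of *Rpl29*, a ribosomal protein gene on chromosome 9, and at 90% or more over at least 300 bp with 34 genes elsewhere, so that its counts are uncertain. The best match was *Uimc1*, at 95.2% over 394 bp. *Rpl29* itself had between 2 and 7 counts per library.

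**Figure D3:**
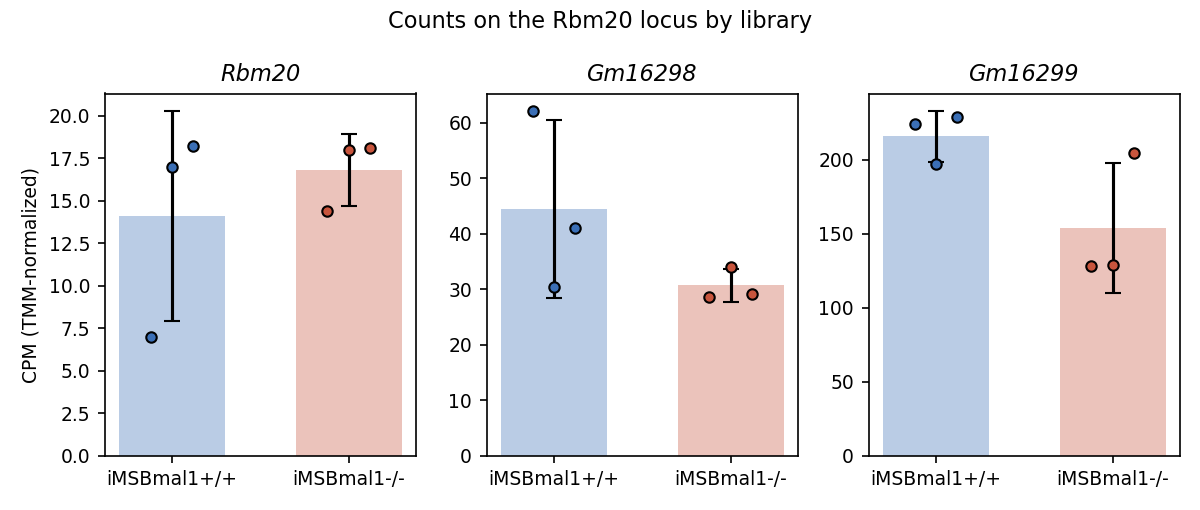
TMM-normalized CPM (y axis, from 0) of *Rbm20*, *Gm16298* and *Gm16299* in iMS*Bmal1*+/+ (blue) and iMS*Bmal1*-/- (red) TA muscle; points are the 3 libraries of a group, bars their mean and lines the SD. The groups overlap for each gene, and for *Gm16299* the overlap comes from iMS*Bmal1*-/- replicate 3 at 205 CPM.

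The counts of the locus were also compared within each library, which needs no scaling. *Rbm20* made up 2.38, 6.98 and 6.32% of the counts of the 3 genes in control and 8.38, 9.93 and 7.18% in knockout muscle. Each knockout library lay above each control library, although neighbouring values lay within the 95% Wilson intervals of single libraries, such as 5.01 to 9.64% for control replicate 2. The means were 5.23 ± 2.49% (SD, n = 3) and 8.50 ± 1.38% (SD, n = 3), and an exact permutation test, two-sided, gave p = 0.10, the smallest that 3 libraries against 3 allow. The difference of 3.27 percentage points was 1.85 without control replicate 1. The share rises when *Rbm20* is higher as well as when the intron genes are lower, and it does not separate these.

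Among the other RBM genes, *Rbm10*, a regulator of exon skipping encoded on the X chromosome, had the most counts of the 7 RBM members. It had 82.5, 105 and 101 CPM in control and 115, 105 and 95.8 CPM in knockout muscle, with overlapping groups and a log2 fold change of 0.13 (standard error 0.14, edgeR adjusted p = 0.793), or 0.03 without control replicate 1 and 0.05 without knockout replicate 1. Per kilobase of exonic sequence, its level in control muscle was 25.9 CPM, beside 7.46 for *Rbm24*, 7.23 for *Rbm38* and 2.07 for *Rbm20*. The levels of *Rbm25*, *Rbm39* and *Rbm5* were 1.42, 1.25 and 0.0799 CPM per kilobase. *Rbm24*, which promotes inclusion of muscle exons, had 22.4, 25.8 and 30.0 CPM in control and 22.2, 22.2 and 14.8 CPM in knockout muscle. Its groups did not overlap, but the lowest control and the highest knockout value nearly touch. It was the only 1 of the 18 tested members without overlap, beside 17.3% of the tested genes (8.84% higher and 8.45% lower), and its log2 fold change was -0.41 (standard error 0.23, edgeR quasi-likelihood adjusted p = 0.517), or -0.24 without knockout replicate 3. *Rbm38*, its close relative, and *Rbm25* and *Rbm39*, which associate with the spliceosome, had log2 fold changes between 0.08 and 0.38 with adjusted p from 0.675 to 0.963 in edgeR. *Rbm5* had at most 4 counts per library.

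The RBFOX proteins bind beside alternative exons of muscle and nerve. *Rbfox1*, the more counted of both genes, had 6.46, 7.74 and 6.83 CPM in control and 10.9, 5.39 and 9.54 CPM in knockout muscle. The knockout libraries lay on both sides of the control range. Its log2 fold change was 0.32 (standard error 0.36), and that of *Rbfox2* was -0.60 (standard error 0.43), with adjusted p of 0.804 and 0.659 from edgeR. The value of *Rbfox1* was 0.11 without knockout replicate 1 and 0.55 without knockout replicate 2.

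MBNL proteins promote adult splicing patterns and are sequestered by repeat RNA in myotonic dystrophy. *Mbnl1* had 43.8, 54.7 and 48.6 CPM in control and 61.8, 59.3 and 53.4 CPM in knockout muscle. Replicate 3 of knockout lay below control replicate 2, and the log2 fold change was 0.25 (standard error 0.16, edgeR adjusted p = 0.587). *Mbnl2* had 6, 8 and 8 counts against 10, 9 and 19, or 2.98, 4.13 and 3.04 CPM against 4.35, 5.39 and 9.06 CPM. Its groups did not overlap, but it was below the filter on low counts and was not tested. The 3 MBNL genes summed to 46.7, 58.9 and 51.6 CPM in control and 66.1, 64.7 and 62.5 CPM in knockout muscle, higher without overlap, and *Mbnl1* held 91.8% of these counts. The sums of the other 10 groups of members, the intron genes of *Rbm20* among them, overlapped between the genotypes. Of the 2 CELF members, whose proteins often act against MBNL proteins on the same exons, *Celf2* had 4, 0 and 2 counts in control and 0, 6 and 3 in knockout muscle, and *Celf1* had 0 in each library. *Celf2* was above the floor of 3 counts in control replicate 1 and knockout replicate 2, and its groups overlapped.

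The 3 PTBP genes were below the filter. *Ptbp1*, a repressor of muscle and neuronal exons, had 4, 6 and 5 counts in control and 7, 10 and 4 in knockout muscle, and *Ptbp2* and *Ptbp3* had at most 2 per library. SR proteins (SRSF) bind exonic enhancers, and 3 of the 9 genes were tested, with log2 fold changes from -0.27 to 0.09. *Srsf4* was the most counted of the 9, with 20.4, 16.0 and 12.9 CPM in control and 11.3, 12.0 and 17.2 CPM in knockout muscle. Its values were interleaved between the groups (log2 fold change -0.27, standard error 0.28, edgeR adjusted p = 0.797). This value was -0.09 without control replicate 1 and -0.16 without knockout replicate 1, and -0.43 and -0.49 without replicate 3 of control and of knockout. The other 6 SRSF genes had at most 10 counts per library.

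HNRNP proteins coat nascent transcripts and often silence exons. Of the 8 genes, 3 were tested, with log2 fold changes from -0.38 (*Hnrnpk*) to 0.06 (*Hnrnpa2b1*). *Hnrnph1* had the most counts of the 8, with 16.4, 20.6 and 22.8 CPM in control and 14.4, 19.2 and 15.7 CPM in knockout muscle. Both ranges overlapped, and its log2 fold change was -0.30 (standard error 0.24, edgeR adjusted p = 0.711), or -0.19 without control replicate 3. The STAR protein Quaking, encoded by *Qk*, regulates splicing in muscle and glia. It had 21.4, 28.4 and 16.7 CPM in control and 25.7, 25.2 and 34.3 CPM in knockout muscle. Replicate 3 of knockout was the highest library, the others overlapped, and the log2 fold change was 0.38 (standard error 0.23, edgeR adjusted p = 0.578). It was 0.19 without control replicate 3, 0.21 without knockout replicate 3 and 0.59 without control replicate 2. *Khdrbs1*, the gene of SAM68, had at most 2 counts per library.

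*Tra2a*, a cofactor of SR proteins, had 0, 2 and 4 counts in control and 3, 0 and 1 in knockout muscle. *Tardbp*, the gene of TDP-43, a repressor of cryptic exons, had 5, 7 and 10 counts against 5, 5 and 2. The groups overlapped for both genes, and a difference was not detectable at these counts.

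Opposite-strand genes with exon overlap were found for 15 of the 41 members, in 19 pairs with 32 to 1961 bp of overlap. In 17 of the 19 pairs the opposite-strand gene held more counts than the splicing regulator. The exceptions were *Rbm10* with *Ndufb11*, a subunit of respiratory complex I, and *Hnrnpu* with *Cox20*. Of the 19 opposite-strand genes, 17 were tested and 0 passed the threshold in edgeR's quasi-likelihood test, beside 1.83% of the tested genes. At an unadjusted p under 0.05 there was 1 (*1700018M17Rik*, named after its values were seen), beside 11.9% of the tested genes, and DESeq2 and limma also gave 0 past the threshold. Their median log2 fold change was -0.02.

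*Gm26679*, which overlaps *Mbnl2* by 86 bp, had 423, 454 and 454 CPM in control and 447, 418 and 400 CPM in knockout muscle. The groups overlapped, at a log2 fold change of -0.07 (standard error 0.10, edgeR adjusted p = 0.857) with a 95% interval from -0.28 to 0.14. *Gm12992*, facing *Srsf4* over 1532 bp, had 236, 232 and 277 CPM against 239, 203 and 239 CPM (log2 fold change -0.13). *Masp2*, a gene of the complement lectin pathway that faces *Tardbp* over 1817 bp, had 170, 179 and 194 CPM against 158, 171 and 180 CPM. Groups overlapped for both, and the counts of *Masp2* gave a log2 fold change of -0.10 (standard error 0.11). The standard error of *Gm12992* was 0.11, beside 0.28 for *Srsf4* with fewer counts, while *Mbnl2* and *Tardbp* were too low to test. Over left-out libraries, *Gm26679* ranged from -0.13 to -0.04, *Gm12992* from -0.18 to -0.04 and *Masp2* from -0.15 to -0.05.

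*Gm26565*, which faces *Celf2*, had 29.3, 22.2 and 32.3 CPM in control and 23.1, 27.0 and 23.4 CPM in knockout muscle (log2 fold change -0.21, or -0.09 without control replicate 3 and -0.35 without control replicate 2). *Ptbp1* faces 3 genes. *Plppr3* had 52.7, 43.4 and 35.7 CPM against 45.3, 44.9 and 44.8 CPM (log2 fold change 0.04, or -0.10 without control replicate 3). *Gm17134* had 34.8, 40.3 and 25.4 CPM against 29.2, 35.3 and 32.4 CPM. Its log2 fold change of -0.05 turned to 0.10 without control replicate 2 and 0.02 without knockout replicate 1. *E130317F20Rik* had 10.9, 18.6 and 7.21 CPM against 18.3, 19.8 and 15.7 CPM (log2 fold change 0.58, standard error 0.31), and its value was 0.27 without control replicate 3 and 0.99 without control replicate 2. Each of these 4 genes overlapped between the groups. *Ndufb11* had 5.97, 9.29 and 9.11 CPM in control and 14.8, 11.4 and 10 CPM in knockout muscle, without overlap, and a log2 fold change of 0.57 (standard error 0.32, edgeR adjusted p = 0.524), or 0.37 without knockout replicate 1. The only other tested opposite-strand gene without overlap was *Gm14453*, facing *Rbm38* and named after its values were seen, at 458, 482 and 388 CPM against 510, 490 and 505 CPM (log2 fold change 0.18, edgeR adjusted p = 0.538), so that 2 of 17 did not overlap, beside 17.3% of the tested genes.

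**Figure D4:**
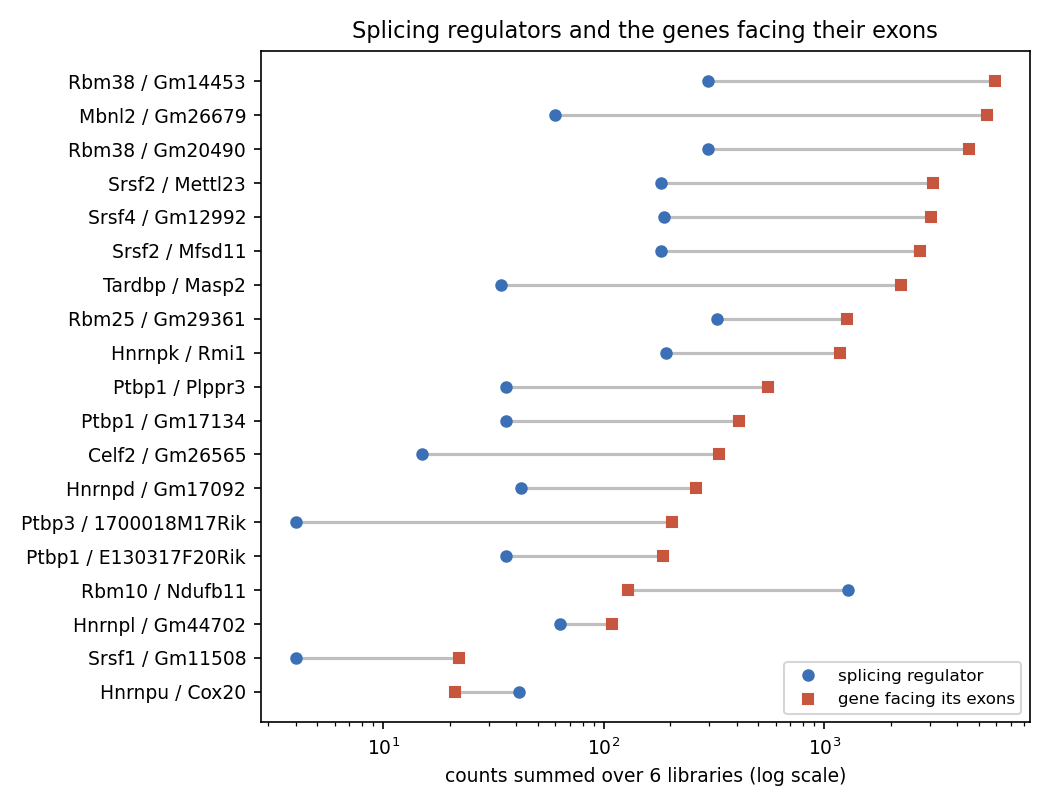
Counts summed over the 6 libraries (x axis, log scale) of splicing regulators (blue circles) and of the genes whose exons face theirs (red squares), 1 line per pair. The opposite-strand gene is higher in 17 of 19 pairs, and lower for *Rbm10* with *Ndufb11* and *Hnrnpu* with *Cox20*.

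Genes on the opposite strand inside an intron, without exon overlap, were looked for at each member as at *Rbm20*, after the values there had been seen. There were 8 besides *Gm16298* and *Gm16299*, of which 5 were tested and 0 passed the threshold in edgeR, DESeq2 or limma or had an unadjusted p under 0.05 in edgeR, beside 1.83% and 11.9% of the tested genes in edgeR. Their median log2 fold change was -0.04. *Gm43980* in *Tra2a* had the most counts, with 154 to 232 per library, against 0 to 4 on *Tra2a*.

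Sequence features were not part of the choice of members. BMAL1 binds with CLOCK to the E-box CACGTG, which reads the same on both strands. In promoters of RefSeq (GRCm38.p6, windows of 300 bp), 36 of the 41 members had an entry, and *Rbm20*, *Gm16298*, *Rbfox2*, *Ptbp3* and *Khdrbs1* did not. The E-box was found in 3 of the 36 (8.33%), *Mbnl1*, *Ptbp1* and *Hnrnpd*, and in 8.09% of all 27025 genes. A match is no evidence of binding. Copies elsewhere in the genome, at 90% identity or more over at least 300 bp of a transcript, were found for 12 of the 41 members, 4 of them tested (*Rbm10*, *Gm16298*, *Hnrnpa2b1* and *Hnrnpk*). Counts of these genes are uncertain, since reads that match a copy equally well cannot be placed. How the counting treated such reads is not given in the sources used here.

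Further genes of the splicing machinery were described in the same way. Of 57 further splicing regulators, 21 were tested and 0 passed the threshold in edgeR, 3 had an unadjusted p under 0.05 (beside 11.9% of the tested genes), and the median log2 fold change was -0.02. These 57 include genes of the same families with more counts over the 6 libraries than any member of that family. They are *Rbm4b* (6167, beside 1278 for *Rbm10*), *Celf3* (955, beside 15 for *Celf2*), *Hnrnpab* and *Hnrnph3* (1234 and 251, beside 231 for *Hnrnph1*) and *Srsf9* (341, beside 188 for *Srsf4*), named after their values were seen. *Celf3* had 88.0, 76.4 and 87.3 CPM in control and 72.7, 64.7 and 59.6 CPM in knockout muscle, lower without overlap (log2 fold change -0.35, standard error 0.14, edgeR adjusted p = 0.295), and it is among the 3. The others were *Srrm2*, higher without overlap (log2 fold change 0.65, standard error 0.25, edgeR adjusted p = 0.279), and *Ewsr1*. *Ewsr1* was lower without overlap (log2 fold change -0.99, standard error 0.45, edgeR adjusted p = 0.379). Of the 21 tested genes, 5 did not overlap, 1 higher and 4 lower, beside 17.3% of the tested genes. Of 8 kinases that phosphorylate SR proteins, 4 were tested, 0 passed the threshold or had an unadjusted p under 0.05, and the median was 0.04. Of 40 genes of the core spliceosome, 14 were tested and 0 passed, with 1 at an unadjusted p under 0.05 and a median of 0.05. Beside the tested genes, with 1.83% past the threshold and 11.9% at an unadjusted p under 0.05, each of these 3 lists had 0 genes past the threshold, also in DESeq2 and limma. The core spliceosome genes summed to 861, 839 and 881 CPM in control and 917, 909 and 886 CPM in knockout muscle, without overlap. *Prpf39*, a pre-mRNA processing factor, held 68.0% of these counts, at 566, 568 and 591 CPM against 643, 634 and 597 CPM. Its mean was 575 CPM in control and 625 CPM in knockout muscle, beside 860 and 904 CPM for the sum. The higher sum came from this gene. Among the 14 tested genes, 4 did not overlap, beside 17.3% of the tested genes. *Prpf39* (log2 fold change 0.12) and *Prpf8* (0.80) were higher, and *Snrpa* (-0.33) and *Snrpc* (-0.44) were lower. The gene at an unadjusted p under 0.05 in edgeR was *Snrpc*. The sums overlapped for the further splicing regulators (1112, 1069 and 1128 CPM against 1032, 1075 and 1056 CPM) and for the kinases (169, 201 and 224 CPM against 204, 186 and 190 CPM).

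Transcripts known as splicing targets of RBM20 were examined by their total counts, since values per exon were not analysed here. Whether RBM20 acts on each of them in TA muscle was not tested here. Of 22 such genes, 16 were tested and 0 passed the threshold in edgeR, DESeq2 or limma, beside 1.83% of the tested genes in edgeR. At an unadjusted p under 0.05 in edgeR there were 4 of the 16, beside 11.9% of the tested genes. Their median log2 fold change was 0.23, beside 0.00 over the tested genes, and 15 of the 16 were above 0, beside 3404 of the 6831 tested genes. The summed level was 4121, 5338 and 4534 CPM in control and 5470, 5744 and 6455 CPM in knockout muscle. The groups did not overlap, and *Ttn*, the gene of titin, held 84.2% of these counts. The fiber markers above, whose sum was higher in the same libraries, had a median of 0.44, and their part in this sum was not tested.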

How the data were processed

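TA muscle RNA was sequenced from 3 iMS*Bmal1*+/+ and 3 iMS*Bmal1*-/- mice. The authors mapped reads to mm10 with HISAT2 and deposited raw counts per Ensembl gene from HTSeq. Their versions and the strand setting are not given in the sources used here. The authors also deposited a normalized signal, which is the counts divided by 1 constant per library (0.828 to 1.26, beside DESeq2 size factors of 0.812 to 1.27 computed here). Raw counts were tested for genotype with edgeR 4.0.16 (R 4.3.3; TMM scaling, filterByExpr, quasi-likelihood test, two-sided), with Benjamini-Hochberg adjustment over all 6831 genes that passed the filter and a threshold of 0.05. Alternatives were DESeq2 1.42.0, limma 3.58.1 on log2(normalized signal + 1), no filter, at least 10 counts in every library, upper-quartile scaling, a block for the replicate number, and fits without 1 library at a time. Gene positions came from GENCODE mouse release 21 (52489 of 52636 identifiers matched), and copies from blastn 2.17.0. Values in each library are given for *Rbm20*, *Gm16298*, *Gm16299*, the most counted member of each family, members whose groups do not overlap, and their opposite-strand genes, and other members by range. The members and lists were chosen with earlier results of these data known.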

Additional observations from a re-analysis of the deposited data

How the results depend on the processing

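The number of genes past the threshold was 125, and 109 to 122 with DESeq2, limma, upper-quartile scaling or at least 10 counts in every library. It was 219 without the filter on low counts, and between 60 and 109 when 1 library was left out, with 66 without knockout replicate 1 and 60 without replicate 2. The number of members past it was 0, and 1 (*Gm16299*) without the filter and without knockout replicate 3, with a range of 0 to 1 over left-out libraries. The log2 fold change of *Gm16299* was -0.52 without the filter (adjusted p = 0.0140 from edgeR, in a range of 0.00440 to 0.492 over 12 alternatives) and -0.75 to -0.38 over left-out libraries. The cause was not tested. *Rbm20* ranged from -0.09 (without control replicate 1) to 0.48, *Gm16298* from -0.75 to -0.25, and the share of *Rbm20* in its locus differed by 1.85 to 4.15 percentage points. Over left-out libraries *Plppr3* ranged from -0.10 (without control replicate 3) to 0.19, and *Gm17134* from -0.22 to 0.10 (without control replicate 2), with 0.02 without knockout replicate 1. The opposite-strand genes had 0 past the threshold in each alternative run, and *Pvalb* and *Cd163* passed it in the 12 run for them. The median of the members was -0.04 without knockout replicate 3.

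With the replicate number as a block (replicate block), 220 genes and 1 member passed the threshold, *Gm16299* at -0.52 (adjusted p = 0.00993 from edgeR), and the share of *Rbm20* differed by 3.27 percentage points. Libraries with the same number did not deviate together, with correlations across genes of -0.037, -0.017 and -0.029. A pairing by number was thus not seen in these values, though with 3 libraries per group such correlations cannot exclude one.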
